A study of Homo sapiens with 3 samples.

Results

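The genes described here are the Snail factors SNAI1, SNAI2 and SNAI3, the ZEB factors ZEB1 and ZEB2, the TWIST factors TWIST1 and TWIST2, and CDH1, the E-cadherin gene that these repressors are best known for silencing. They were chosen by gene symbol: every probe set whose only symbol in the platform annotation was one of the 8 was taken, which gave 17 probe sets of 41091 with a single symbol, and 8 genes of 19775. The cells were SKBR3, a long-established breast cancer line of human origin with an amplified ERBB2 gene and no oestrogen receptor α. All cells spent 4 h in medium with 10% charcoal-stripped serum and then received estradiol at 1 µM, ERα17p, a synthetic peptide from the sequence of oestrogen receptor α, at 1 µM, or 0.1% ethanol as vehicle, each for 3 h. An ethanol content was recorded for the vehicle cells only. Each condition had 1 array, 3 arrays in all, and the labels do not say whether they came from separate cultures, so no difference below has an error, a replicate check or a p-value. As a model for E-cadherin the line has a known limit: SKBR3 is described as lacking E-cadherin protein, with a large part of CDH1 deleted.

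Epithelial cells hold together through E-cadherin, whose intracellular tail binds catenins and through them the actin cytoskeleton. Snail factors bind DNA with C-terminal zinc fingers, ZEB factors with a zinc finger cluster at each end of the protein, and TWIST factors as basic helix-loop-helix dimers. All of them recognise E-boxes, short sites of the form CANNTG, and recruit corepressors to promoters such as that of CDH1. The programme they start, the epithelial-mesenchymal transition, loosens junctions and raises genes of motile cells, and SNAI1 is known as one of its fast, short-lived members.

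Since the E-box is the site these factors share, the available windows before the starts of member genes were searched for it. RefSeq sequences of build GRCh38.p14 matched for 3 of the 8 members, namely ZEB1, ZEB2 and TWIST2, and the 250 bases before the annotated gene start were read. The windows of ZEB1 (chr10:31318167-31318416, plus strand) and ZEB2 (chr2:144520120-144520369, minus strand) are shown because each gene had several probe sets with differing values, described below, and capitals mark each CANNTG.
ZEB1: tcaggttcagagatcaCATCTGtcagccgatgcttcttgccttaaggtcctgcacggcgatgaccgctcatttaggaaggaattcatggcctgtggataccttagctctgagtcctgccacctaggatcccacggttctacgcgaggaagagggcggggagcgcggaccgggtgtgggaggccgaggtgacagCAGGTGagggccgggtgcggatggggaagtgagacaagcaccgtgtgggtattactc
ZEB2: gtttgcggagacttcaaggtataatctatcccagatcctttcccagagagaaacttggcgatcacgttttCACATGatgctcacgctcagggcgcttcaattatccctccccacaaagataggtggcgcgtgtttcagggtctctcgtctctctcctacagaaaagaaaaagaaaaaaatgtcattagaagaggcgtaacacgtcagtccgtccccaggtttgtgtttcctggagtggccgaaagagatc
The ZEB1 window holds 2 E-boxes, which begin 234 and 57 bases before the start, and the nearer one is CAGGTG, the form that Snail and ZEB factors are known to prefer. ZEB1 had 7 windows, and only this one, at the annotated gene start, is described. The ZEB2 window holds 1, CACATG, beginning 180 bases before the start, and the TWIST2 window holds 0. CANNTG reads as an E-box on both strands and occurred in 61.8% of all 35116 windows of this length, and CAGGTG on either strand in 17.5%. These matches describe letters in the windows and no binding was measured.

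The values are log2 distances from a zero point that had been taken off each probe set, whose origin is not given in the files or labels. For 3979 of 54675 probe sets (7.28%), 2 arrays held values of equal size and opposite sign, to a tolerance of 1e-06 and for values over 0.001, so the zero point was not independent of these arrays. Arrays can therefore be compared within a probe set, but levels cannot be read, neither between genes nor to see whether a gene was expressed at all. For this reason neither the identity of the line nor the presence of CDH1 transcript could be checked from levels. Differences of 10 markers of ERBB2-amplified luminal cells lay between -0.28 and 0.41 log2 units in the 3 comparisons, with 0 past 1.5-fold (0.585 log2 units), the size used throughout to count differences. Of 7 fibroblast, 4 immune and 4 endothelial markers measured, 0 passed 1.5-fold either. The vehicle array stood apart from both others, with a standard deviation over probe sets of 0.12 on the array of estradiol-treated cells, 0.13 on that of ERα17p-treated cells and 0.27 on the vehicle array. The ACTB control probe sets for the 3′ end minus those for the 5′ end gave 0.02 with estradiol, -0.04 with ERα17p and 0.30 with vehicle. This measure bears on RNA integrity. With a zero point taken off each probe set it can be compared between arrays only, and does not give the integrity of any 1 array. For GAPDH the same measure gave 0.01, -0.03 and 0.05. Their part in the results was not tested.

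SNAI1, the founding Snail factor of this programme, was the member that differed most. Its single probe set (219480_at) lay at -0.06 log2 units with estradiol, -0.04 with ERα17p and 0.97 with vehicle. Both treated arrays were thus close to the zero point and to each other, and the vehicle array was high. SNAI1 was lower with estradiol than with vehicle by a log2 difference of -1.03 (2.04-fold) and lower with ERα17p than with vehicle by -1.01 (2.02-fold). Only 1.02% and 0.808% of probe sets lay farther from 0 in the same comparisons, and 166 and 142 of 19775 genes were lower still. Both differences share the vehicle array and are not separate observations. On that array 160 genes lay farther above the zero point than SNAI1, which ranks distances and not levels. On either treated array SNAI1 lay within 1.5-fold of the zero point, but a zero point that depends on these arrays can draw their distances towards 0 and is no control. Between the treated arrays themselves SNAI1 differed by -0.02 (estradiol minus ERα17p), and 91.3% of probe sets lay farther from 0.

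**Figure D1:**
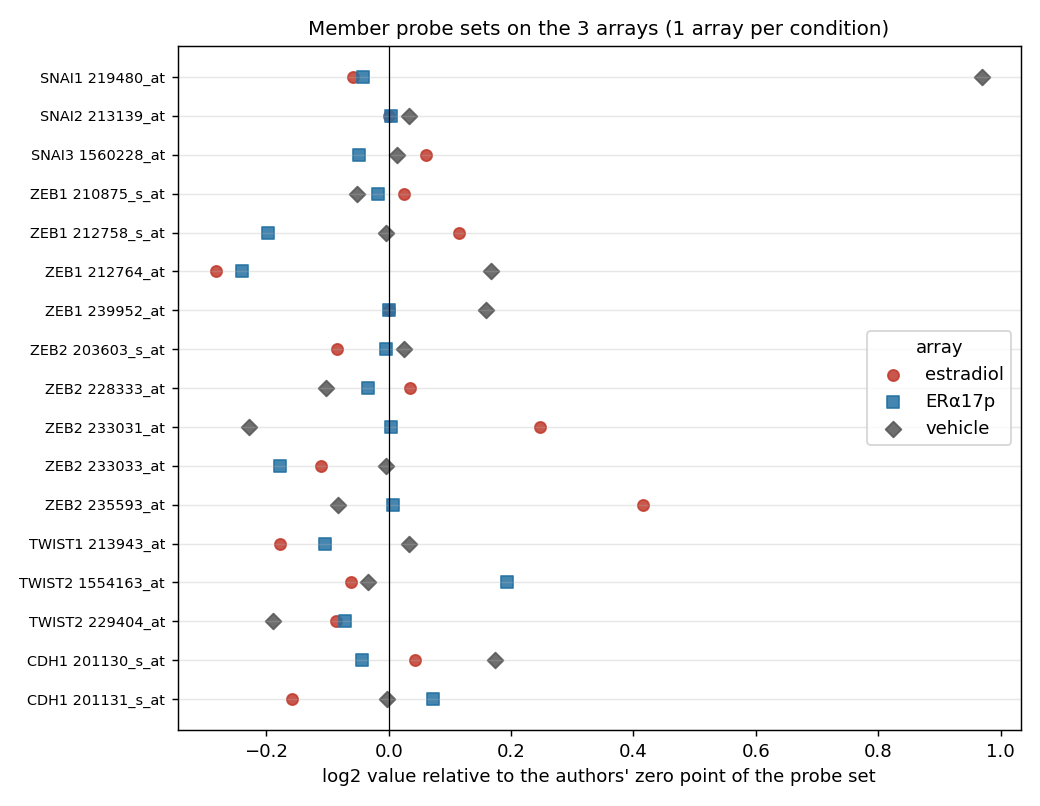
Log2 values of the 17 member probe sets relative to the zero point of each probe set (x axis), for the estradiol (circles), ERα17p (squares) and vehicle (diamonds) arrays, 1 array per condition. SNAI1 on the vehicle array, at 0.97, stands off, while the other 16 probe sets lie between -0.28 and 0.42 on every array.

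The other Snail genes did not follow SNAI1. SNAI2, which encodes Slug, had values of 0 with estradiol, 0.004 with ERα17p and 0.03 with vehicle, so the 3 arrays nearly coincided. Its differences were -0.03 for estradiol minus vehicle, -0.03 for ERα17p minus vehicle and -0.004 for estradiol minus ERα17p. SNAI3, a less studied paralogue, had values of 0.06, -0.05 and 0.01 on the estradiol, ERα17p and vehicle arrays. The vehicle array lay between the treated ones, with differences of 0.05 for estradiol minus vehicle, -0.06 for ERα17p minus vehicle and 0.11 for estradiol minus ERα17p. Each Snail gene was read by 1 probe set, so no second probe set bears on the SNAI1 difference.

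ZEB1 was read by 4 probe sets that did not agree in sign. Probe set 212764_at was the lowest of them, with -0.28 after estradiol, -0.24 after ERα17p and 0.17 after vehicle. Its differences from vehicle were -0.45 with estradiol (1.36-fold lower) and -0.41 with ERα17p (1.33-fold lower), short of 1.5-fold, and 10.6% and 10.2% of all probe sets lay farther from 0. Like SNAI1, this probe set placed both treated arrays on one side and the vehicle array on the other. Probe set 239952_at had the same order at a smaller size, with 0 on both treated arrays and 0.16 on the vehicle array. The other pair did not share it. Probe set 210875_s_at read 0.02, -0.02 and -0.05 on the estradiol, ERα17p and vehicle arrays. Probe set 212758_s_at read 0.12, -0.20 and -0.004 in that order, placing the vehicle array between the treated ones. As a median over its probe sets, ZEB1 differed by -0.06 for estradiol minus vehicle and by -0.18 for ERα17p minus vehicle. The 4 probe sets spanned 0.57 log2 units in the first of these and 0.44 in the second, against medians of 0.41 and 0.38 over the 1393 genes with as many probe sets.

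ZEB2, also known as SIP1 for its binding to SMAD proteins, was read by 5 probe sets, of which 3 were higher and 2 lower with estradiol than with vehicle. The widest was 235593_at, with 0.42 after estradiol, 0.008 after ERα17p and -0.08 after vehicle. It was higher with estradiol by 0.50 against vehicle (1.41-fold), which 8.16% of probe sets surpassed in size, and by 0.41 against ERα17p (1.33-fold), which 3.76% surpassed. Probe set 233031_at had the same order, at 0.25, 0.004 and -0.23 on the estradiol, ERα17p and vehicle arrays, with differences of 0.48 for estradiol minus vehicle and 0.24 for estradiol minus ERα17p. These 2 probe sets put the estradiol array highest, none past 1.5-fold. Probe set 228333_at also did so by less, at 0.04, -0.03 and -0.10. The remaining 2 put the vehicle array highest: 203603_s_at read -0.08, -0.004 and 0.03 on the estradiol, ERα17p and vehicle arrays, and 233033_at read -0.11, -0.18 and -0.004. As a median, ZEB2 differed by 0.12 for estradiol minus vehicle, 0.08 for ERα17p minus vehicle and 0.04 for estradiol minus ERα17p. The range over its probe sets for estradiol minus vehicle was 0.61, and 31.3% of the 706 genes with 5 probe sets had a wider one.

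**Figure D2:**
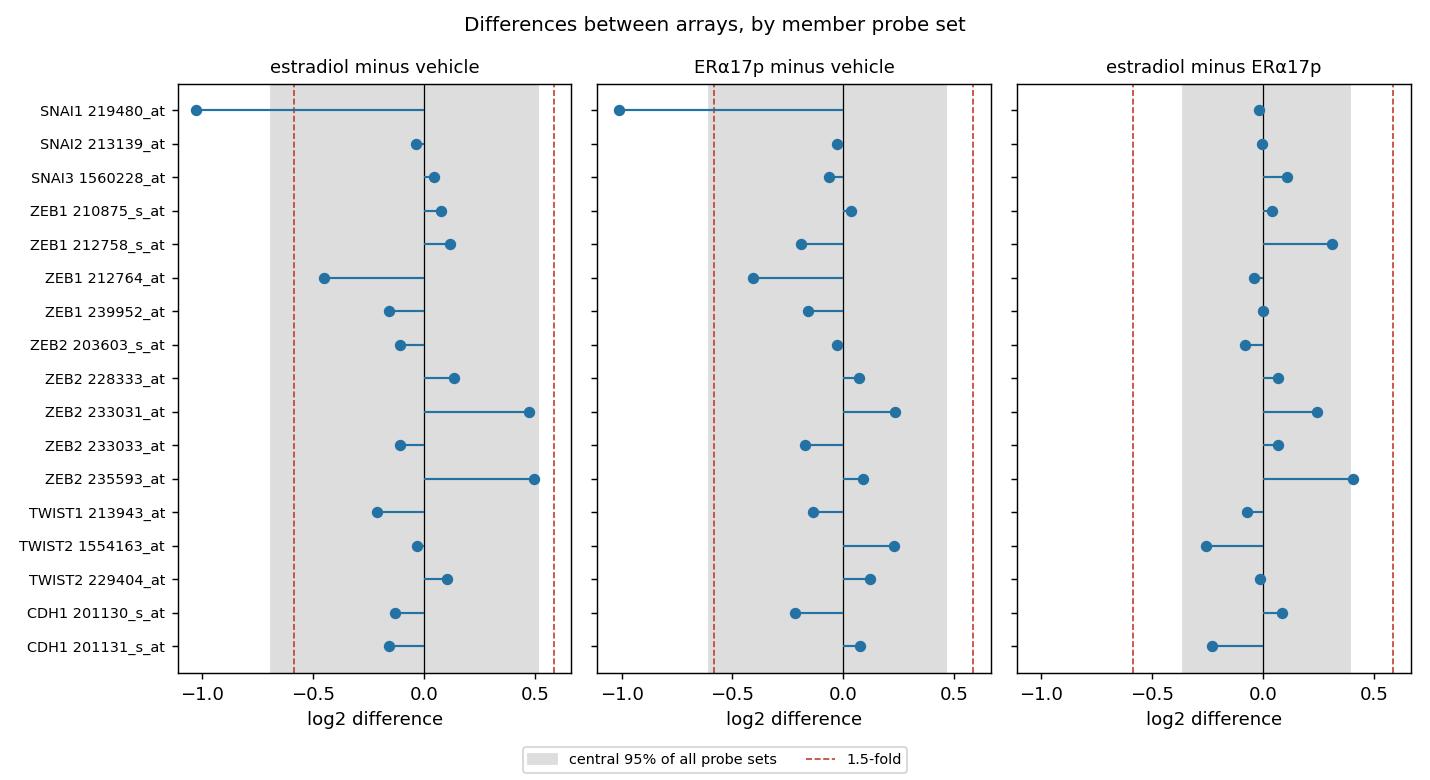
Log2 differences between arrays for the 17 member probe sets (points) in the 3 comparisons, with dashed lines at 1.5-fold and grey bands over the central 95% of all 41091 probe sets. SNAI1 alone passes 1.5-fold, at -1.03 with estradiol and -1.01 with ERα17p against vehicle, and 235593_at of ZEB2, at 0.41, leaves the grey band for estradiol minus ERα17p.

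TWIST1, a helix-loop-helix factor of mesoderm and cranial mesenchyme, was read by 1 probe set with values of -0.18, -0.10 and 0.03 on the estradiol, ERα17p and vehicle arrays. Its differences were -0.21 for estradiol minus vehicle (1.16-fold lower) and -0.14 for ERα17p minus vehicle (1.10-fold lower), which 38.5% and 51.9% of probe sets exceeded in size. TWIST2, its close paralogue, was read by 2 probe sets. With 1554163_at the values were -0.06, 0.19 and -0.03 on the estradiol, ERα17p and vehicle arrays, and with 229404_at they were -0.09, -0.07 and -0.19. The first thus put the ERα17p array highest, the second put the vehicle array lowest, and both placed ERα17p above vehicle, by 0.23 and 0.12. For estradiol minus vehicle they had opposite signs, at -0.03 and 0.10.

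CDH1 was read by 2 probe sets. With 201130_s_at the values were 0.04, -0.04 and 0.17 on the estradiol, ERα17p and vehicle arrays, and with 201131_s_at they were -0.16, 0.07 and -0.003. Both were lower with estradiol than with vehicle, by -0.13 and -0.16, differences that 57.1% and 50.9% of all probe sets exceeded. With ERα17p they had opposite signs, at -0.22 and 0.08, and for estradiol minus ERα17p again, at 0.09 and -0.23. As a median over both, CDH1 differed by -0.14 for estradiol minus vehicle, -0.07 for ERα17p minus vehicle and -0.07 for estradiol minus ERα17p. A relation between the CDH1 and SNAI1 values was not tested. Whether these probe sets registered any transcript in a line described as CDH1-deleted cannot be read from values with a zero point taken off.

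By the fixed size of 1.5-fold, 1 of the 17 member probe sets, that of SNAI1, differed between estradiol and vehicle. Of all probe sets with 1 symbol, 5.09% did. Between ERα17p and vehicle the count was again 1 of 17, against 3.65% of all probe sets, and between estradiol and ERα17p it was 0 of 17, against 0.604%. With 1 call among 17 probe sets (5.88%), the members' shares against vehicle were near those of all probe sets. Without SNAI1, the other 16 probe sets ran from -0.45 to 0.50 for estradiol minus vehicle, from -0.41 to 0.23 for ERα17p minus vehicle and from -0.26 to 0.41 for estradiol minus ERα17p. Their medians were -0.03, -0.03 and 0.02, where all probe sets had 0.02, 0.03 and -0.02.

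The genes whose values over the 3 arrays were most like those of SNAI1, by Euclidean distance after each gene's own mean was taken off, were FAM222A, SCG2 and KBTBD8. SCG2 encodes secretogranin II, a protein of secretory granules, and KBTBD8 encodes a substrate adaptor of a ubiquitin ligase. FAM222A had -0.03, -0.07 and 0.98 on the estradiol, ERα17p and vehicle arrays, at a distance of 0.041 log2 units. SCG2 had -0.05, -0.10 and 0.94, and KBTBD8 had 0.01, 0 and 1.08, both at 0.048. All 3 likewise stood high on the vehicle array alone. In all, 30 genes lay within 0.1 of SNAI1, so the pattern was shared by many genes over only 3 arrays.

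Genes that act with or around these factors were followed in 7 lists, which held 155 measured genes of 166. Across them 12 genes were lower and 1 was higher by 1.5-fold with estradiol than with vehicle (8.39%, against 3.74% of all genes), 7 were lower and 0 higher with ERα17p than with vehicle (4.52%, against 2.73%), and 4 were lower and 0 higher with estradiol than with ERα17p (2.58%, against 0.354%). These 4 are all ID genes, and the lists were chosen with earlier results of these arrays known, so the shares give a description only. The shares of all genes count both directions together and were not split. For estradiol minus vehicle, 166 of the 168 genes farther from 0 than SNAI1 were lower, and for ERα17p minus vehicle 142 of 145. On the vehicle array 465 genes lay past 1.5-fold above the zero point and 60 below it. The lower side against vehicle was thus not particular to these lists. Against the zero point, which is no control, the 4 ID genes passed with estradiol and 0 genes with ERα17p. On the 124 genes left without probe sets whose IDs end in _s_at or _x_at, the 3 counts were 6, 4 and 1. Called genes such as ID1, ID2 and ID3 had no probe set left there. The medians of the 7 lists lay between -0.14 and 0.12 log2 units in the 3 comparisons. Over all genes the median was 0.03 with either agent against vehicle and -0.01 for estradiol minus ERα17p.

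Inducers and upstream pathway genes held 3 of 24 lower members in either comparison with vehicle, with medians of 0.03 for estradiol and 0.009 for ERα17p. Of all genes, 3.74% passed in either direction for estradiol minus vehicle and 2.73% for ERα17p minus vehicle. EGR1, an immediate early zinc-finger factor that is known to act on the SNAI1 promoter, had 0.31, -0.13 and 1.37 on the estradiol, ERα17p and vehicle arrays. It was lower than vehicle by -1.06 with estradiol and by -1.49 with ERα17p, and all 3 of its probe sets passed 1.5-fold in both. NFKB1, which encodes an NF-kB subunit, had -0.09, 0.05 and 1.13 in the same order and was lower than vehicle by -1.21 and -1.08. JAG1, a Notch ligand, had -0.11, 0.20 and 0.90 and was lower by -1.003 and -0.70, with 6 probe sets that ran from -1.29 to 0.38 for estradiol minus vehicle. These genes, like SNAI1, stood high on the vehicle array. As gene values, 0 of 24 passed 1.5-fold for estradiol minus ERα17p, against 0.354% of all genes, with EGR1 at 0.44 and JAG1 at -0.31. Single probe sets of some list genes did pass there, among them 1 of 3 of EGR1 (0.62) and 1 of 6 of JAG1 (-0.59).

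The list of helix-loop-helix partners, ID inhibitors and other CDH1 repressors held all 4 list genes past 1.5-fold for estradiol minus ERα17p. These were ID1 to ID4, and the list median there was only -0.03. ID proteins lack a DNA-binding region and tie up the E proteins with which TWIST factors pair. ID1 had -1.82, 0.20 and -0.15 on the estradiol, ERα17p and vehicle arrays, and ID2 had -1.13, 0.06 and 0.02. Both were therefore low on the estradiol array alone, by -2.02 for ID1 and -1.19 for ID2 against ERα17p. ID4 and ID3 were lower in the same comparison by -1.09 and -0.92, and all 4 were lower with estradiol than with vehicle as well. Of 5 ID4 probe sets, 3 passed in either comparison, and they ran from -1.56 to 0.11 for estradiol minus vehicle. Neither TWIST gene had such a difference in its own RNA, at -0.07 for TWIST1 and -0.14 for TWIST2 against ERα17p. These values do not measure the pairing of the proteins. SOX9, a factor that acts with Slug in mammary stem cells, was high on the vehicle array and lower by -1.29 with estradiol and -1.25 with ERα17p. The list of 15 measured genes had 5 lower with estradiol than with vehicle (median -0.14), 1 with ERα17p (0.07) and 4 with estradiol against ERα17p (-0.03), and 0 higher in each. The shares of all genes in these comparisons were 3.74%, 2.73% and 0.354%, counting both directions.

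**Figure D3:**
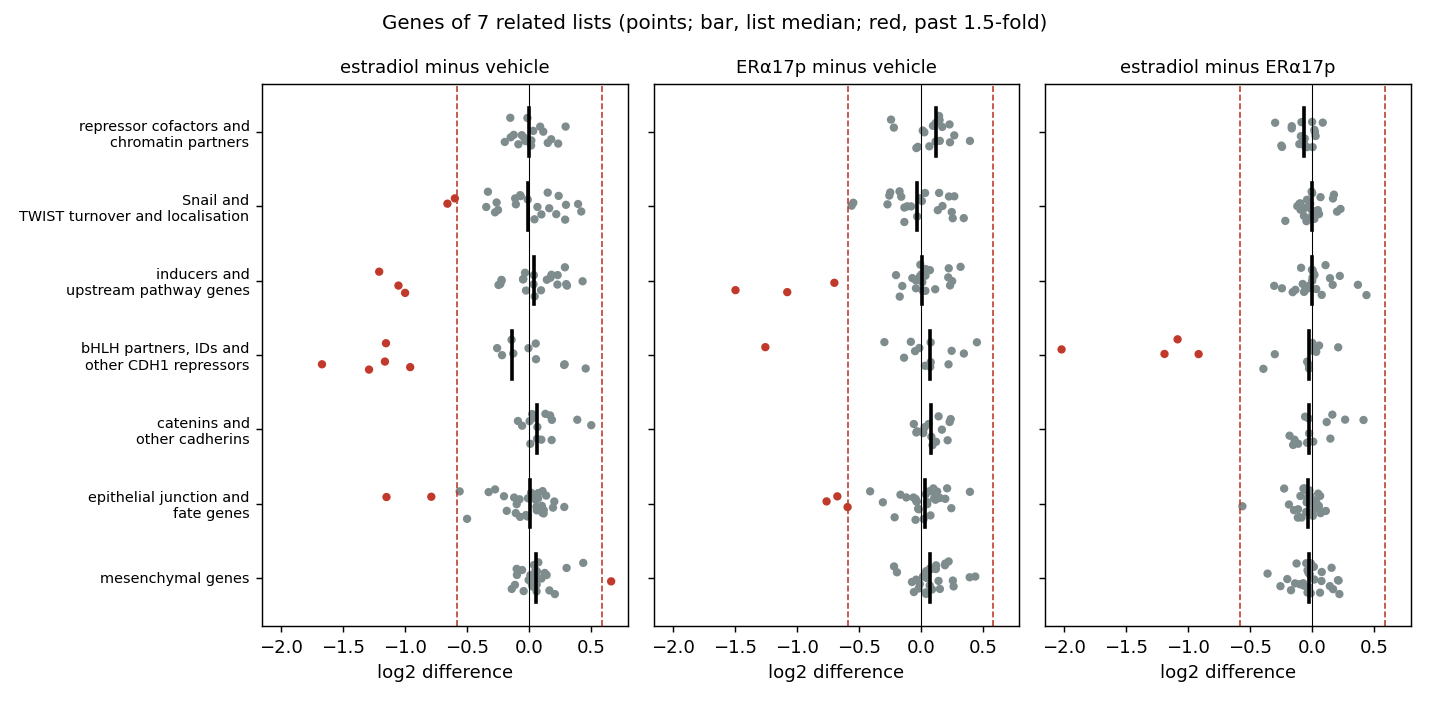
Log2 differences of the genes of 7 related lists (points, each a gene's value from the median over its probe sets) in the 3 comparisons, with list medians as bars and 1.5-fold as dashed lines. Points past 1.5-fold are red and sit on the lower side, apart from COL5A2 at 0.66 for estradiol minus vehicle, and the 4 for estradiol minus ERα17p are ID1 to ID4. Against vehicle, the lower side was not particular to these lists.

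Corepressors and chromatin partners, such as CTBP1, HDAC1 and KDM1A, had 0 of 18 genes past 1.5-fold in all 3 comparisons, and the widest difference was that of AJUBA, a LIM protein that binds the Snail repressor domain, at 0.40 for ERα17p minus vehicle. Of all genes, 3.74% passed for estradiol minus vehicle, 2.73% for ERα17p minus vehicle and 0.354% for estradiol minus ERα17p. A count of 0 of 18 thus does not set this list apart from all genes. Of 23 genes of Snail and TWIST turnover and localisation, 2 ubiquitin ligase genes were lower with estradiol than with vehicle. SIAH1 differed by -0.66 and FBXO45 by -0.60, and with ERα17p they differed from vehicle by -0.56 and -0.54, just short of 1.5-fold. With either agent, 2 of 3 SIAH1 probe sets and 1 of 3 FBXO45 probe sets passed against vehicle. Those of FBXO45 ran from -0.72 to -0.19 with estradiol. The genes for the kinase and the ligase best known for marking Snail for degradation, GSK3B and BTRC, did not pass as gene values in any of the 3 comparisons. Of 5 GSK3B probe sets, 1 passed for estradiol minus vehicle (-0.76) and 1 for estradiol minus ERα17p (-0.64).

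On the side of E-cadherin and cell identity, catenins and other cadherins had 0 of 15 genes past 1.5-fold in all 3 comparisons, with CDH3, the P-cadherin gene, widest at 0.50 for estradiol minus vehicle. Of all genes, 3.74% passed for estradiol minus vehicle, 2.73% for ERα17p minus vehicle and 0.354% for estradiol minus ERα17p. A count of 0 of 15 thus does not set this list apart from all genes. Epithelial junction and fate genes held 2 of 32 lower members with estradiol than with vehicle and 3 with ERα17p, and 0 higher. OVOL1, an epithelial transcription factor gene that opposes ZEB factors, had -0.49, 0.07 and 0.66 on the estradiol, ERα17p and vehicle arrays, and was lower than vehicle by -1.15 and -0.59. With ERα17p it only just passed 1.5-fold, as did 1 of its 2 probe sets (-0.74 and -0.44). CLDN1, a tight junction gene, was lower by -0.79 with estradiol and -0.76 with ERα17p. ELF3, an epithelial ETS factor gene, was lower than vehicle by -0.67 with ERα17p, and differed by -0.56 with estradiol. Of 28 mesenchymal genes, COL5A2, a fibrillar collagen gene, was higher with estradiol than with vehicle by 0.66, and 0 were lower. COL5A2 lay at 0.19 on the estradiol array and -0.47 on the vehicle array, and 1 of its 2 probe sets passed in this comparison. With 1 call among 28 genes, the mesenchymal list was near the share of all genes. Medians of the mesenchymal list were 0.06 for estradiol minus vehicle, 0.07 for ERα17p minus vehicle and -0.02 for estradiol minus ERα17p.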

How the data were processed

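RNA of SKBR3 cells was hybridised to 3 arrays, 1 per condition, grouped by the sample labels. RMA was used by the authors, per the submitters' processing notes, in a version not given in the sources used here. No source names the log base, and the deposited values were taken as log2, the base of RMA. Column medians lay near 0 (-0.002, 0.002 and -0.02 for estradiol, ERα17p and vehicle), which alone could also come from centring each array. The narrow spread over probe sets (standard deviations 0.12, 0.13 and 0.27) and the values of equal size and opposite sign were the grounds for a zero point per probe set. No filter on dim probe sets was therefore possible, and the signal over background is unknown.

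Of 54675 probe sets, 62 controls, 1801 with several symbols and 11721 unnamed here were left out. Entrez IDs matched the GRCh38.p14 gene table for 41037 of 41091, with 0 symbols changed. Gene values were medians over probe sets, and comparisons were log2 differences between arrays, counted at 1.5-fold, with no test. The counting was tested on simulated data with the spread of estradiol minus ERα17p over probe sets (standard deviation 0.19). Against vehicle the spread was wider, at 0.33 with estradiol and 0.29 with ERα17p, so the simulation does not bear on the calls there. Members and lists were chosen with earlier results of these data known. Named genes were all members, up to 5 list genes past 1.5-fold (otherwise the widest), and the 3 genes nearest to any member past 1.5-fold. GSK3B, BTRC, CTBP1, HDAC1 and KDM1A were named in addition as examples. Python 3.11.15 with pandas 2.3.3 was used.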

Additional observations from a re-analysis of the deposited data

How the results depend on the processing

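No paired analysis was possible because each condition had 1 array. Set against the zero point in place of the vehicle array, SNAI1 differed by -0.06 with estradiol and -0.04 with ERα17p. The zero point depends on these arrays, so a call lost this way does not show a weaker difference. The members past 1.5-fold then numbered 0 of 17 with either agent, where the vehicle array gave 1. List genes past 1.5-fold numbered 4 with estradiol, ID1 to ID4, and 0 with ERα17p, where the vehicle array gave 13 and 7. Without probe sets whose IDs end in _s_at or _x_at, which may hybridise with more than 1 transcript, 124 of the 155 list genes and 7 of the 8 members remained, CDH1 dropping out. List genes past 1.5-fold then numbered 6 with estradiol against vehicle, 4 with ERα17p against vehicle and 1, ID4, for estradiol against ERα17p. ID1, ID2, ID3, EGR1 and SOX9 had no probe set left, so the loss of their calls does not show a smaller difference. JAG1 and SIAH1 were also no longer called for estradiol against vehicle, nor JAG1 and ELF3 for ERα17p against vehicle. SIAH1 kept a probe set and passed for ERα17p against vehicle, where it had not passed with all its probe sets. Shares over all genes were not computed without these probe sets. With calls outside the central 95% of all probe sets, 1 member probe set, 235593_at of ZEB2, passed for estradiol against ERα17p in place of 0. Re-centred arrays, means over probe sets and a 2-fold size moved no count of calls by over 1.5 times in the results they were run on. In 8 of 85 recomputed member differences the sign turned, and 0 of these had passed 1.5-fold. Precision is limited by the number of arrays.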
